A study of Mus musculus with 8 samples.

Results

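This account describes how the transcriptome of WT mouse embryonic stem cells changed between the undifferentiated state (day 0) and day 15 of hanging drop differentiation. It rests on 4 RNA-seq libraries, 2 from each day, and the genes described are those with at least 1 FPKM (fragments per kilobase of gene, scaled to the depth of the library) in at least 2 of these 4 libraries. That rule kept 13356 of the 24421 genes in the expression table, or 54.7%. Of the other genes, 6021 were listed at 0 in all 4 libraries and 5044 were above 0 but under the limit. The lowest member had a second-highest value of 1.001 FPKM and the highest gene left out one of 0.999 FPKM. Among the members, 11005 were at 1 FPKM or more in all 4 libraries, 1257 were under 1 FPKM in both day 0 libraries and 386 were under 1 FPKM in both day 15 libraries. A gene of the last 2 kinds entered only through the day at which it was higher.

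Both groups were WT W9.5 cells, a mouse embryonic stem cell line, and both carried an HA tag on the histone variant H3.3. The day 0 group was undifferentiated. The day 15 group had been hung as drops to form embryoid bodies, kept in suspension, plated on day 4 and fed daily. The study ran the protocol to obtain cardiomyocytes, and the day 15 samples are titled differentiated cardiomyocytes. It reports beating foci that covered most but not all of the culture at day 15, so these cultures were not a purified cell type. The 2 libraries of a day came from different biological samples of this 1 line. In such bulk RNA, fewer cells of a type and less RNA per cell cannot be told apart. Changes are given as differences in log2(FPKM + 1), day 15 minus day 0, with the standard error from limma, and a gene was called higher or lower at a Benjamini-Hochberg adjusted p of 0.05 or less in the limma fit over all 13356 genes. Because 1 is added, changes of genes near 0 FPKM come out smaller than their ratios.

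Mouse embryonic stem cells are held in the naive pluripotent state by a network of transcription factors around Pou5f1 (Oct4), Sox2 and Nanog. Once released from their growth factors, aggregates of these cells form embryoid bodies, in which cells resembling the epiblast pass through a stage like the primitive streak and give derivatives of all germ layers. Cardiac progenitors arise from mesoderm and are specified by factors such as Gata4, Nkx2-5, Tbx5, Hand2 and Mef2c, which act on the genes of the contractile apparatus.

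Of the 13356 genes, 4922 were higher at day 15 (36.9%) and 4703 were lower (35.2%). With a change of at least 2 times added to the test, 2546 were higher (19.1%) and 1776 lower (13.3%). The remaining 3731 genes did not pass the test. The changes reached further upwards than downwards: 212 genes were called with a change of 3 or more on the log2 scale and 33 with one of -3 or below. Between the days Pearson's r of the log values ran from 0.821 to 0.827, and between the libraries of a day it was 0.988 and 0.989. The libraries held 7669949 and 8756811 fragments at day 0 and 9005696 and 11107934 at day 15, so both day 15 libraries were deeper than both day 0 libraries.

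**Figure D1:**
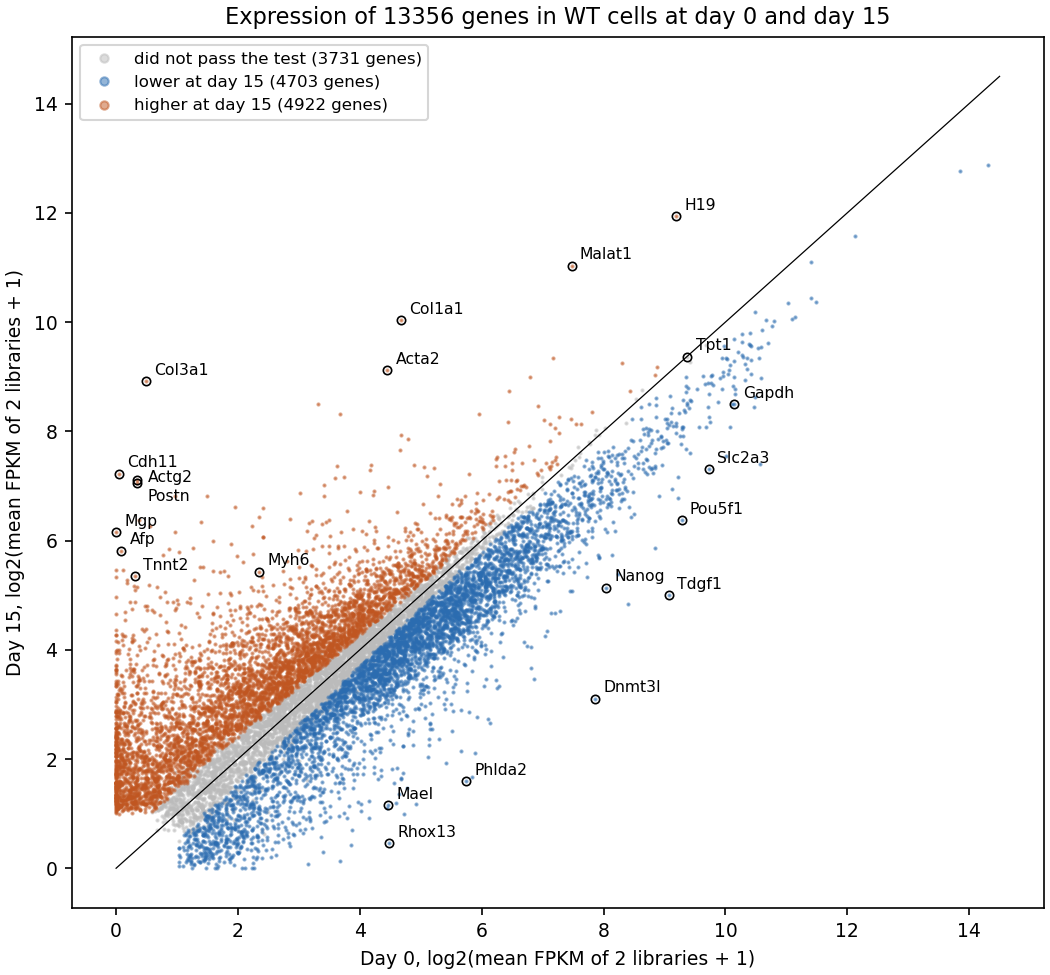
Mean expression of the 13356 genes at day 0 (x axis) and day 15 (y axis) as log2(mean FPKM + 1) of 2 libraries each. Orange points passed the test as higher at day 15 (4922 genes), blue points as lower (4703) and grey points did not pass (3731). The line marks equal values. Matrix and muscle genes such as Col3a1, Acta2 and Col1a1 lie far above the line, and Tdgf1, Dnmt3l and Phlda2 lie far below it.

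The balance of higher and lower genes depended on the scale. The summed FPKM of a library fell from 493808 and 481044 at day 0 to 355477 and 347722 at day 15. With each library scaled to the same sum (TPM), the median change of all genes moved from 0.02 to 0.47, and 7063 genes were higher and 2796 lower, so that higher genes made up 71.6% of calls in place of 51.1%. Short and very abundant RNAs carried part of that sum: Rpph1 and Rmrp, the RNA parts of the enzymes RNase P and RNase MRP, held 7.20% and 7.15% of the summed FPKM at day 0 and 4.42% and 3.81% at day 15. The depth that the deposited FPKM values use was 0.960 and 0.965 times the fragments counted in the day 0 libraries and 1.05 times in both day 15 libraries, so that the scale itself differed by day and a scaling between libraries may already be in the values. Scaling to the fragments counted moved the median to 0.13 and the share of higher calls to 56.8%. Gene groups below whose direction turned with either scaling are named where they appear.

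**Figure D2:**
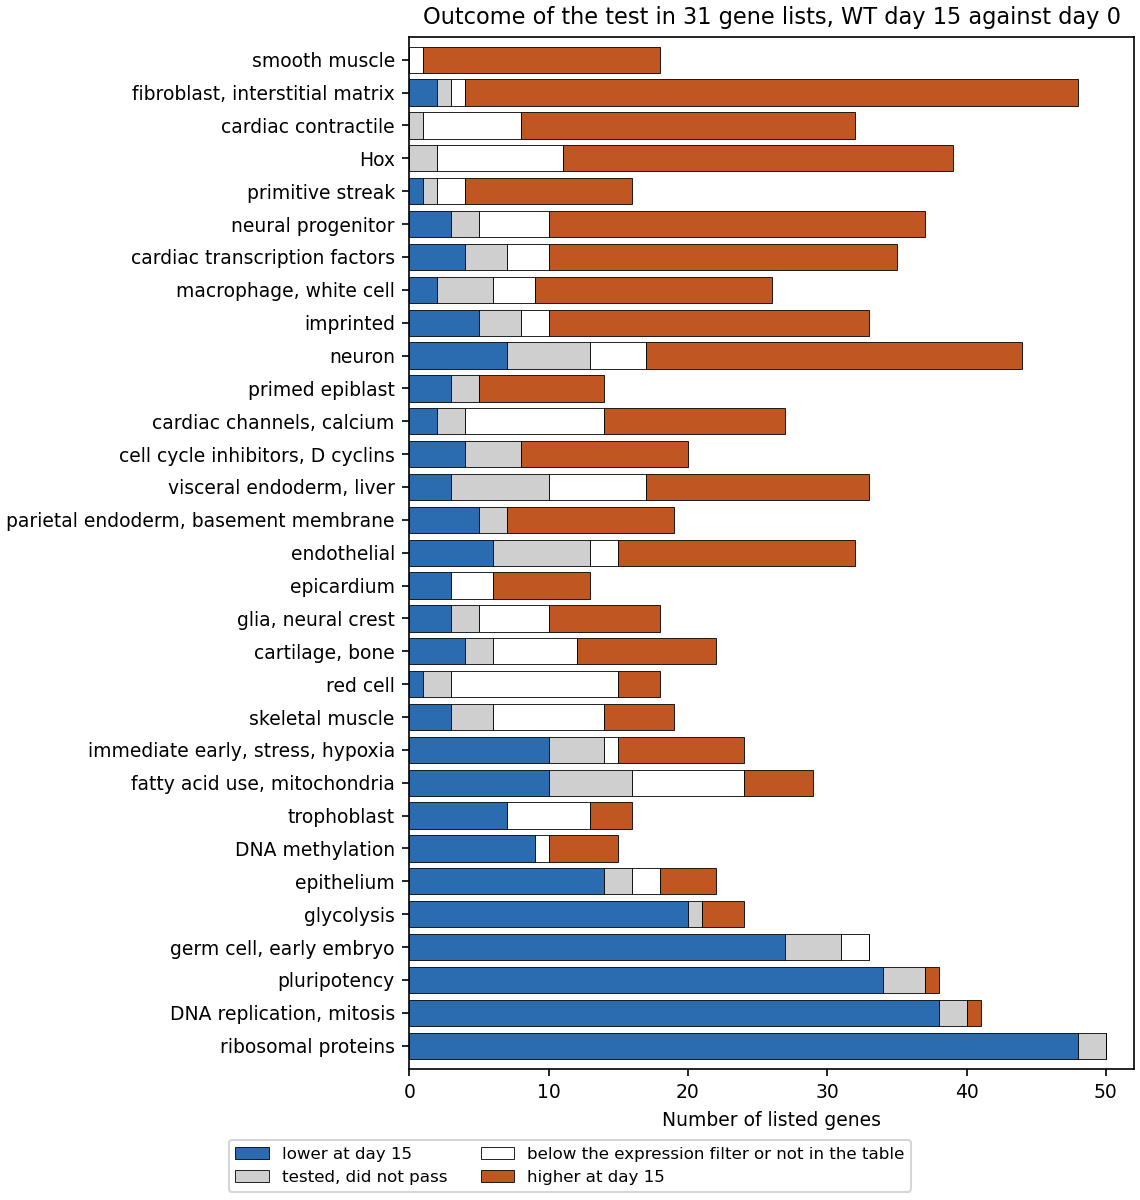
Outcome of the test in 31 gene lists. Each bar is 1 list and its length is the number of genes listed. Blue is the number lower at day 15, grey the number tested that did not pass, white the number under the expression filter or absent from the table, and orange the number higher at day 15. Ribosomal protein, DNA replication, pluripotency, germ cell and glycolysis genes were mostly lower, and smooth muscle, matrix, cardiac contractile and Hox genes mostly higher.

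Small counts within the groups changed when 1 library was left out, a fit with fewer samples to estimate the spread. The calls over all genes also fell without either day 15 library, so a fall in a group is not particular to it. Without the first or the second day 15 library the lower calls fell from 4 to 2 among cardiac transcription factors and among cell cycle inhibitors, and the higher calls from 5 to 3 among skeletal muscle and DNA methylation genes. Lower endothelial calls went from 6 to 2 without the first day 15 library and to 3 without the second or without the second day 0 library. Lower cartilage calls went from 4 to 2 without the second day 15 library and higher fatty acid calls from 5 to 3 without the first. Lower calls among glia and neural crest genes went from 3 to 1 without the second day 15 library. Lower calls among channel and calcium genes went from 2 to 1, and among primitive streak genes from 1 to 2, without the first. The days did not overlap in 11430 genes (85.6%), of which 9625 were the called genes.

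The pluripotency network fell at day 15 but was still measured, with a median level of 19.5 FPKM over the listed genes against 70.9 FPKM at day 0. All 38 listed pluripotency genes were tested, 34 were lower, 33 of them by at least 2 times, and 1 was higher. Their median change was -2.03, against 0.02 over all genes. Pou5f1, the POU factor at the centre of the network, was at 641 and 601 FPKM in the day 0 libraries and 86.2 and 77.8 FPKM at day 15, a change of -2.91 ± 0.08 (adjusted p = 9.0e-07). The homeobox factor Nanog went from 252 and 271 to 35.1 and 33.5 FPKM and the orphan receptor Esrrb from 133 and 136 to 19.3 and 19.1 FPKM. Zfp42 (Rex1), a zinc finger gene of the naive state, went from 471 and 444 to 58.7 and 55.2 FPKM. In each case both day 15 libraries lay far below both day 0 libraries, and the mean at day 15 was 13.2% of that at day 0 for Pou5f1, 13.1% for Nanog and 14.3% for Esrrb. Sox2, which neural progenitors also use, kept 33.5% of its day 0 mean, with 69.1 and 74.1 FPKM at day 15.

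The steepest falls in the list were those of the Nodal co-receptor Tdgf1 (Cripto), of Fgf4 and of Gdf3. Tdgf1 was at 515 and 555 FPKM at day 0 and 27.3 and 34.7 FPKM at day 15, a change of -4.07 ± 0.11 (adjusted p = 1.1e-06). Fgf4, the growth factor through which embryonic stem cells drive their own differentiation, went from 116 and 114 to 9.70 and 10.5 FPKM and Gdf3, a TGF-beta family ligand, from 46.9 and 42.6 to 4.63 and 4.73 FPKM. Stat3, which transmits the LIF signal and is also used in many differentiated cells, was the only listed gene that rose, by 0.48 ± 0.08 (adjusted p = 0.0017). Dppa3, Lefty2 and Spp1 did not pass the test, and Spp1, the matrix protein osteopontin, was at means of 86.7 and 86.8 FPKM.

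Genes of the later, primed epiblast moved in both directions. Of 14 listed, 9 were higher and 3 lower, with a median change of 0.81, and 2 entered only through day 15. Fgf5, the classical marker of the epiblast after implantation, rose from 0.271 and 0.142 to 5.93 and 6.37 FPKM and Fgf8 from 0.103 and 0.0897 to 6.84 and 6.66 FPKM. The forkhead factor Foxd3 fell by 2.07 and Dnmt3b by 0.63. Cldn6 fell by 0.28 (adjusted p = 0.01), missed the threshold without the first day 15 library (adjusted p = 0.051) and was higher, without passing the test, at TPM scaling.

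Promoter sequence is shown for 4 of the genes with large changes, as examples of the letters counted over all promoters below. The windows run from 250 bases before to 50 bases after the annotated transcript start on the mm9 (NCBIM37) genome, and capitals mark TATAAA, the TATA box letters, or, in Zfp42, the octamer ATGCAAAT, whose letters POU factors bind, on either strand. Col3a1 (chr1:45368133-45368432, plus strand) had the largest rise of all members. Postn (chr3:54164781-54165080, plus strand) and Fos (chr12:86814590-86814889, plus strand) hold the letters at -28 and -33 from the start, and Col3a1 at -117. Zfp42 (Rex1, chr8:44392314-44392613, minus strand) holds the octamer, in reverse, at -186. The octamer also stands in the Col3a1 window, in lower case there.
Col3a1: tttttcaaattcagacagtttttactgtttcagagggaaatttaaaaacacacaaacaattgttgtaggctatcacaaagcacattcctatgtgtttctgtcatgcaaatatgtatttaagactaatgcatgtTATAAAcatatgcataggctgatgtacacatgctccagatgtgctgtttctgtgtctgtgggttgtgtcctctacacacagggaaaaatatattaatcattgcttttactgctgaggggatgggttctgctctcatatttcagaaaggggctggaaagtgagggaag
Postn: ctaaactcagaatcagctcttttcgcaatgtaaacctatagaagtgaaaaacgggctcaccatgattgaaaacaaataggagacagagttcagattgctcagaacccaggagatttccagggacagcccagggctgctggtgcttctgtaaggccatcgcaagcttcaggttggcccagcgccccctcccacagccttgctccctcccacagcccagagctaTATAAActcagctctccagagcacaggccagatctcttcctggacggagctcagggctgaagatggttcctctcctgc
Fos: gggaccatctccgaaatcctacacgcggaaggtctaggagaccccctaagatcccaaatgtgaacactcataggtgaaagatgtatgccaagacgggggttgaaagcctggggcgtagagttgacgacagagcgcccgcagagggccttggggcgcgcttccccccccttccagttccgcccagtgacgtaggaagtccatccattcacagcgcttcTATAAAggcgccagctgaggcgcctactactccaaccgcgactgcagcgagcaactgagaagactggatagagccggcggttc
Zfp42: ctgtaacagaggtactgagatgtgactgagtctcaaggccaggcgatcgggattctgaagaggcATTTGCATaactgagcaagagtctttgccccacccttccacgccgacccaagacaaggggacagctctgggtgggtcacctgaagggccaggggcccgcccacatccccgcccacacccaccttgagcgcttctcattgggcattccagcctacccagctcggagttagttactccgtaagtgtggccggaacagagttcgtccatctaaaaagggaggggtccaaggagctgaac

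A window of this kind could be read for 12241 of the 13356 members. TATAAA stood on either strand in 9.47% of the windows of genes at least 2 times higher, in 11.002% of those at least 2 times lower and in 7.53% of all. The octamer was found in 1.71%, 2.21% and 1.45% of them, CCAAT in 35.5%, 42.4% and 38.6%, and AGATAA, a form of the GATA factor site, in 6.61%, 7.25% and 6.36%. Both strands were searched, and matches of different motifs may overlap at their ends. A CpG count of at least 0.6 of that expected from the base content was less common among the higher genes, at 56.7%, than among the lower ones at 65.8% and all members at 70.3%. With the 150 bases before the start alone, the shares were 57.5%, 63.5% and 69.2% for CpG, 5.12%, 6.21% and 3.68% for TATAAA and 25.1%, 32.3% and 28.2% for CCAAT, in the same order as in the longer window. Col3a1 holds no CpG in its window, Postn 5, Zfp42 11 and Fos 20. These are descriptions of letters and no binding was measured. The higher genes were also longer, with a median length of 3674 bases in the FPKM calculation against 1971 bases for the lower genes and 2889 for all.

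Most of the cardiac genes tested were higher at day 15. Of 35 listed cardiac transcription factors, 32 were tested, 14 of them only through day 15 and 1 only through day 0, and 25 were higher and 4 lower, with a median change of 1.76. Their list summed to 195 and 204 FPKM at day 0 and 491 and 493 FPKM at day 15. Hand2, a basic helix-loop-helix factor needed for the right ventricle, was at 0 and 0.265 FPKM at day 0 and 37.8 and 34.8 FPKM at day 15, a change of 5.05 ± 0.17 (adjusted p = 1.8e-06). Nr2f2 (COUP-TFII), a receptor of atrial and venous cells, went from 0.167 and 0.316 to 29.99 and 36.4 FPKM, and Tbx2, a T-box repressor of the atrioventricular canal, from 0.496 and 0.498 to 25.5 and 25.4 FPKM. Isl1, a factor of the second heart field that motor neurons also use, was listed at 0 in both day 0 libraries and at 8.66 and 10.1 FPKM at day 15. The day 15 libraries lay above the day 0 libraries in each of these.

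The core cardiac factors were less far apart. Gata4 was already at 15.7 and 15.8 FPKM at day 0 and rose by 0.44 ± 0.10 to 23.1 and 20.5 FPKM (adjusted p = 0.006). Gata6 rose from 10.6 and 10.4 to 28.0 and 23.5 FPKM. Both are also endoderm factors, and they stand in the visceral endoderm list as well. Nkx2-5 reached only 2.58 and 1.06 FPKM from 0.535 and 0.311 FPKM (adjusted p = 0.016), and with the first day 15 library left out its call was lost (adjusted p = 0.064), as was that of Gata4 (adjusted p = 0.065). Mef2c went from 0.103 and 0.0361 to 2.91 and 3.21 FPKM. Tbx5, at 0.889 and 1.47 FPKM at day 15, and Gata5, at 1.03 and 0.698 FPKM, reached 1 FPKM in a single library each and were not tested. Tbx3, also a pluripotency gene, fell by 1.48 and Irx4, a ventricular factor, fell by 1.05. Hand1, also a trophoblast gene, fell by 0.29 (adjusted p = 0.028), a call lost without the first day 15 library (adjusted p = 0.10) or the second (adjusted p = 0.12) and also without the second day 0 library (adjusted p = 0.12), and a direction that turned at TPM scaling.

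Contractile genes rose without exception among those called. Of 32 listed, 25 were tested, 9 only through day 15, and 24 were higher and 0 lower by limma, with a median change of 1.74. At an unadjusted p under 0.05 limma gave 24 higher and 0 lower, and voom, run on the whole fragments recovered from the FPKM values, gave 24 higher and 0 lower. Tnnt2, cardiac troponin T, was at 0 and 0.473 FPKM at day 0 and 38.9 and 41.0 FPKM at day 15, a change of 5.08 ± 0.20 (adjusted p = 3.0e-06). Cardiac alpha-actin, Actc1, went from 0.391 and 1.02 to 52.7 and 52.3 FPKM and the alpha myosin heavy chain Myh6 from 4.45 and 3.68 to 42.6 and 41.8 FPKM. Tnni1, the slow skeletal troponin I of the fetal heart, was listed at 0 at day 0 and was at 13.3 and 11.2 FPKM at day 15, at least 72.0-fold higher if day 0 is set at 3 fragments over both of its libraries, the limit that a count of 0 allows. The same floor stands behind each such ratio below. Both day 15 libraries stood above both day 0 libraries in all of them. The summed FPKM of the whole list, tested or not, was 195 and 178 at day 0 and 728 and 726 at day 15.

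Isoform partners of the heart were both measured. At day 15 Myh6, the main adult mouse isoform, was at a mean of 42.2 FPKM and Myh7, the fetal ventricular one, at 13.02 FPKM. The atrial light chain Myl7 was at 11.1 and 9.83 FPKM at day 0 and 68.9 and 64.9 FPKM at day 15. The ventricular Myl2 was at 0.859 and 0.374 FPKM at day 0 and 15.4 and 16.6 FPKM at day 15. Myl7 stood above Myl2 at both days. Tnni3, the adult cardiac troponin I, rose from 3.79 and 2.01 to 7.99 and 8.39 FPKM, a change of 1.27 ± 0.23 (adjusted p = 0.0019) that did not pass without the first day 15 library (adjusted p = 0.083) or the second (adjusted p = 0.091).

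Genes of excitation and calcium handling were measured at lower levels. Of 27 listed, 17 were tested, 8 only through day 15, and 13 were higher and 2 lower, with a median change of 1.42. The median was 0.74 with no filter, and 0.13, with 2 genes higher and 2 lower, among those of a mean of 5 FPKM or more. Over the whole list the summed FPKM was 200.4 and 211 at day 0 and 247 and 252 at day 15. Slc8a1, the sodium-calcium exchanger, rose from 0.0653 and 0.0253 to 6.01 and 6.66 FPKM and the calcium channel subunit Cacna2d1 from 0.725 and 1.15 to 7.86 and 9.51 FPKM. The ryanodine receptor Ryr2 rose by 0.93 ± 0.17 to 3.04 and 2.86 FPKM and phospholamban, Pln, was listed at 0 at day 0 and at 2.27 and 2.34 FPKM at day 15. Atp2a2, the calcium pump of the sarcoplasmic reticulum, was the most abundant gene of the list and fell from 106 and 106 to 82.8 and 82.0 FPKM, by 0.36 (adjusted p = 0.0017), a direction that turned at TPM scaling without passing the test. Nppa, the atrial natriuretic peptide, was listed at 0 at day 0 and at 0.384 and 0.721 FPKM at day 15, under the filter, as were the calsequestrin Casq2 at 0.760 and 0.543 and sarcolipin, Sln, at 0.204 and 0.328 FPKM. Nppb did not pass the test, with 1.91 and 2.88 FPKM at day 0 and day 15 libraries at 0.544 and 3.17 FPKM that lay on either side of the day 0 values.

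**Figure D3:**
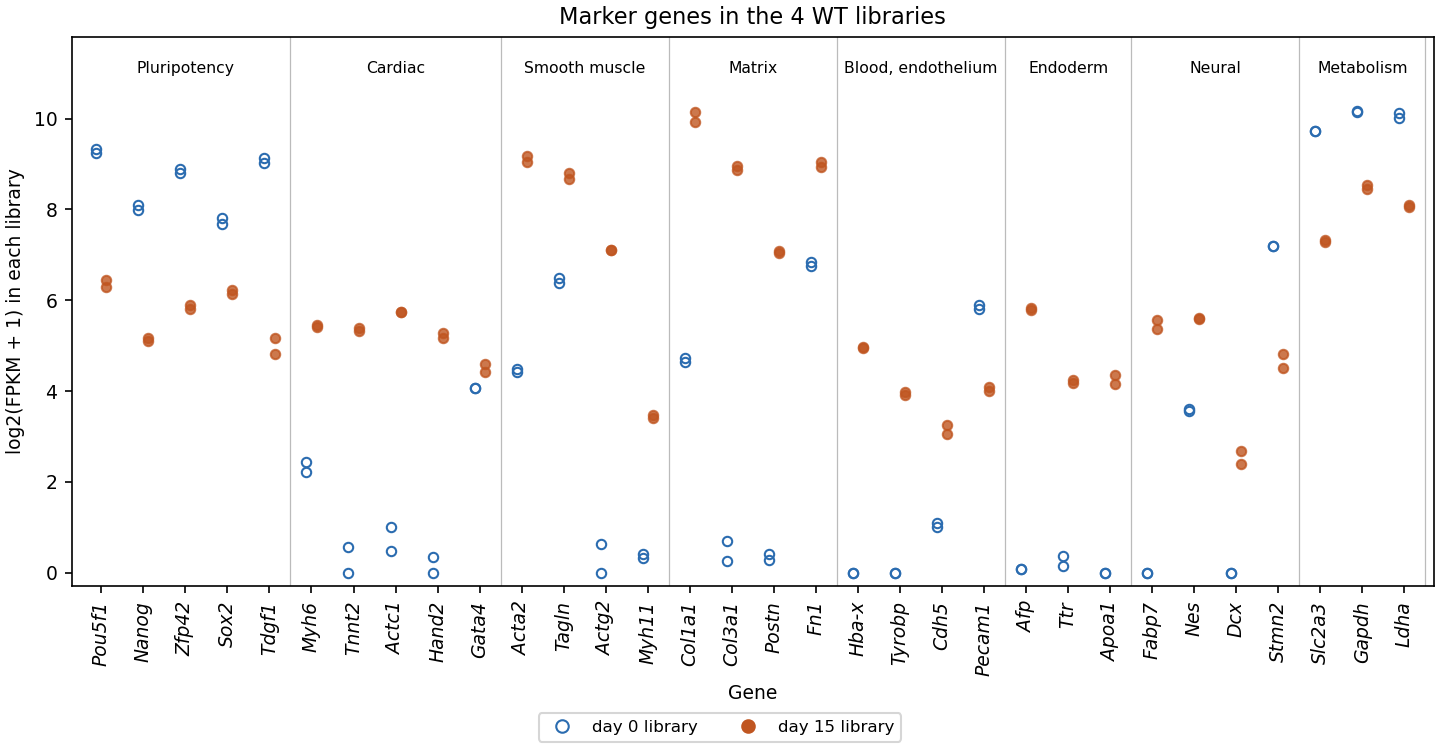
log2(FPKM + 1) of 32 marker genes in each WT library, with open blue circles for the 2 day 0 libraries and filled orange circles for the 2 day 15 libraries. The libraries of a day lie close together, and the largest gaps between the days are those of the matrix genes Col3a1 and Postn and of Actg2.

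Smooth muscle and fibroblast genes rose with larger median changes than the cardiac lists. Of 18 listed smooth muscle genes, 17 were tested, 6 only through day 15, and all 17 tested were higher, with a median change of 2.29. Acta2, smooth muscle alpha-actin, which early cardiomyocytes and myofibroblasts also make, rose from 21.3 and 20.4 to 581 and 526 FPKM, by 4.67 ± 0.08 (adjusted p = 2.5e-07). The enteric form Actg2 rose from 0 and 0.540 to 136 and 137 FPKM and transgelin, Tagln, from 89.0 and 82.8 to 443 and 406 FPKM. Myh11, the smooth muscle myosin that is most specific to the lineage, reached 10.04 and 9.56 FPKM from 0.328 and 0.250 FPKM, and Rgs5, a pericyte gene, 15.08 and 15.001 FPKM from 0.0751 and 0 FPKM.

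Interstitial matrix held the largest change of all members. Of 48 listed fibroblast and matrix genes, 47 were tested, 18 only through day 15 and 1 only through day 0, and 44 were higher, 43 of them by at least 2 times, and 2 lower. The median change was 3.26, or 3.51 with the 3 genes listed at 0 at day 0 set to the lowest ratio that 3 fragments over both day 0 libraries allow. Col3a1, the chain of type III collagen, was at 0.195 and 0.617 FPKM at day 0 and 495 and 468 FPKM at day 15, a change of 8.44 ± 0.15 (adjusted p = 2.5e-07). Col1a1, a chain of type I collagen, rose from 23.9 and 25.3 to 1138 and 970.0 FPKM and its partner Col1a2 from 10.2 and 7.62 to 380.3 and 345 FPKM. Both day 15 libraries of these genes were many times above both day 0 libraries. Postn (periostin), a matrix protein of cardiac cushions and fibroblasts, rose from 0.330 and 0.216 to 134 and 131 FPKM, and the matrix gene Tnc (tenascin C) was also among the 10 largest rises. Ptn (pleiotrophin), a heparin-binding growth factor, rose from 0.0672 and 0.527 to 82.6 and 82.3 FPKM, by 6.03 ± 0.18. The adhesion gene Cdh11 rose from 0.0645 and 0 to 147 and 150.4 FPKM, by 7.18 ± 0.11, the calcification inhibitor Mgp from 0 in both libraries to 75.8 and 65.2 FPKM, at least 223-fold, and Col6a1 from 0.205 and 0.744 to 79.3 and 72.7 FPKM. Mfap5 fell by 1.53 and Timp1 fell by 0.40, and Timp1 was higher, without passing the test, at TPM scaling.

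The summed FPKM of the matrix list was 796 and 760.4 at day 0 and 5878 and 5464 at day 15, and that of the smooth muscle list 265 and 254 at day 0 and 1718 and 1589 at day 15. Epicardial genes were mixed. Of 13 listed, 10 were tested, 5 only through day 15, and 7 were higher and 3 lower, with a median change of 1.43. Tcf21, a factor of the epicardium and of fibroblasts, was listed at 0 at day 0 and at 18.9 and 20.2 FPKM at day 15, at least 127-fold higher, and Wt1 rose from 1.14 and 1.53 to 5.32 and 5.24 FPKM. The mesothelial genes Msln and Krt19 fell by 1.94 and 1.36. With genes under a mean of 5 FPKM left out, 1 epicardial gene was higher and 2 lower, and the median turned to -1.36. The epicardial list summed to 144 and 150.3 FPKM at day 0 and 95.6 and 100.4 FPKM at day 15. Of 22 cartilage and bone genes, 16 were tested, 7 only through day 15 and 2 only through day 0, and 10 were higher and 4 lower. Sox9, the factor of early cartilage, rose from 0.262 and 0.514 to 16.1 and 14.8 FPKM and its target Col2a1 from 2.14 and 2.40 to 44.2 and 39.6 FPKM, while Acan, the main proteoglycan of cartilage, fell by 1.25. Skeletal muscle factors were low, with Myod1 at 2.004 and 1.66 and Myog at 3.01 and 3.06 FPKM at day 15. Of 19 listed skeletal genes, 11 were tested, 4 only through day 15, and 5 were higher and 3 lower, with a median of 0.35 that turned to -1.43 without genes under a mean of 5 FPKM. Among all genes tested, 36.9% were higher and 35.2% lower. The skeletal actin Acta1 and the light chain Mylpf fell by 1.46 and 1.22.

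Blood and vessel genes appeared in small amounts. Of 32 listed endothelial genes, 30 were tested, 8 only through day 15 and 1 only through day 0, and 17 were higher and 6 lower, with a median change of 0.69. Cdh5, the junction cadherin of endothelium, rose from 1.12 and 1.01 to 7.27 and 8.52 FPKM, by 2.10 ± 0.16 (adjusted p = 3.1e-05), and the VEGF receptor Kdr from 0.424 and 0.434 to 6.74 and 6.83 FPKM. Pecam1 moved the other way, from 54.6 and 58.2 to 16.0 and 15.004 FPKM, a change of -1.80 ± 0.09 (adjusted p = 5.2e-06). It is made by endothelium and by undifferentiated embryonic stem cells. Vwf, the clotting factor stored in endothelium, was also lower, at 0.577 and 0.464 FPKM at day 15 against 1.92 and 1.46 FPKM.

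Embryonic globins were among the genes with no fragment at day 0. Hba-x, Hbb-bh1 and Hbb-y, the globins of the first red cells of the yolk sac, were listed at 0 in both day 0 libraries. At day 15 Hba-x was at 30.3 and 30.01 FPKM, at least 95.3-fold higher. Hbb-bh1 was at 26.6 and 21.7 FPKM, at least 38.6-fold higher, and Hbb-y at 10.5 and 7.86 FPKM, at least 29.9-fold higher. The adult globins Hba-a1, Hba-a2, Hbb-b1 and Hbb-b2 were listed at 0 in all 4 libraries, which near-identical copies that share reads can also give. Of 18 red cell genes, 17 were in the table and 6 tested, 3 only through day 15 and 1 only through day 0, and 3 were higher and 1 lower. Their median change was 1.83, or 2.62 with the 3 embryonic globins set to their lowest ratio, but it was 0.07 with no filter. Over the whole list the summed FPKM was 91.02 and 97.3 at day 0 and 109 in both day 15 libraries. Klf1 and Alas2 were under the filter. The transferrin receptor Tfrc, which growing cells of all kinds use, fell by 1.10.

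Several macrophage genes rose, and most were near 0 FPKM at day 0. Of 26 listed genes of white cells, 23 were tested, 13 only through day 15 and 1 only through day 0, and 17 were higher and 2 lower, with a median change of 1.89, or 2.05 with the 6 genes at 0 at day 0 set to their lowest ratio. Tyrobp, an adaptor of myeloid receptors, and the complement genes C1qb and C1qc were listed at 0 at day 0. At day 15 Tyrobp was at 14.8 and 14.0 FPKM, C1qb at 13.4 and 9.80 FPKM and C1qc at 12.3 and 10.4 FPKM. Lysozyme, Lyz2, rose from 1.29 and 0 to 31.1 and 29.1 FPKM, by 4.36 ± 0.35 (adjusted p = 3.7e-05), and the receptor of macrophage growth factor, Csf1r, from 1.40 and 0.916 to 7.34 and 6.56 FPKM. Ptprc (CD45) was under the filter at 0.824 and 0.602 FPKM. Laptm5 fell from 24.9 and 23.7 to 7.92 and 7.65 FPKM. The whole list summed to 52.8 and 49.9 FPKM at day 0 and 166 and 155 FPKM at day 15.

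Endoderm genes changed in both directions, and those that rose include genes of the yolk sac. Of 33 listed genes of visceral endoderm and liver, 26 were tested, 8 only through day 15, and 16 were higher and 3 lower, with a median change of 0.66. Afp, alpha-fetoprotein, was at 0.0651 and 0.0567 FPKM at day 0, a single fragment in each library, and at 54.4 and 56.1 FPKM at day 15, a change of 5.73 ± 0.13 (adjusted p = 7.7e-07). Transthyretin, Ttr, rose from 0.111 and 0.291 to 17.8 and 17.1 FPKM, apolipoprotein B, Apob, from 0.186 and 0.170 to 13.6 and 13.1 FPKM, and Apoa1 from 0 to 19.6 and 16.9 FPKM, at least 95.0-fold. Albumin, Alb, stayed under the filter at 0.520 and 0.877 FPKM. The uptake receptors Cubn and Lrp2, which visceral endoderm uses to take up maternal proteins, fell by 0.83 and 0.69. Among 19 basement membrane and parietal endoderm genes, all tested and 1 only through day 15, 12 were higher and 5 lower. The laminin chains Lama1, Lamb1 and Lamc1 fell by 1.31, 0.67 and 0.79, while the type IV collagen chain Col4a2 rose by 0.55 ± 0.07. Vim, the filament of mesenchymal cells, rose from 144 and 142 to 678 and 622 FPKM.

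Most of the neural progenitor genes tested were higher at day 15. Of 37 listed neural progenitor genes, 32 were tested, 18 only through day 15, and 27 were higher and 3 lower, with a median change of 1.84, or 2.001 with the 4 genes at 0 at day 0 set to their lowest ratio. The genes that entered only through day 15 had to be higher there. With no filter the median was 1.72, and with a mean of 5 FPKM or more required 9 genes were higher and 2 lower. The summed FPKM of the whole list was 432 and 450.1 at day 0 and 1091 and 1038 at day 15. Most of that rise came from Vim, the mesenchymal filament gene above, which is also in this list. Fabp7, the lipid-binding protein of radial glia, was listed at 0 at day 0 and at 46.2 and 40.1 FPKM at day 15, at least 173-fold higher. Sox11 rose from 3.55 and 3.91 to 49.5 and 56.5 FPKM and the filament Nes from 10.8 and 11.2 to 47.4 and 47.5 FPKM. Neurog2, which starts neuron formation, went from 0 to 6.85 and 6.005 FPKM and Sox1 from 1.45 and 1.99 to 6.49 and 7.29 FPKM. Sox3 did not pass, with 4.54 and 5.22 FPKM at day 0 and 5.76 and 6.94 FPKM at day 15. Gbx2, a gene of both the naive state and the hindbrain, fell by 3.003.

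Neuron genes split. Of 44 listed, 40 were tested, 15 only through day 15, and 27 were higher and 7 lower, with a median change of 1.29, or 1.36 with the 5 genes at 0 at day 0 set to their lowest ratio, and their summed FPKM, 404 and 413 at day 0, was 413 and 415 at day 15. Dcx, of migrating young neurons, went from 0 to 4.23 and 5.42 FPKM, Map2, of dendrites, from 1.80 and 1.33 to 9.67 and 11.2 FPKM and the secretory protein Chgb from 0.199 and 0.130 to 9.90 and 10.8 FPKM. Tubb3, often used as a neuron marker, was at 52.6 and 55.1 FPKM at day 0 and 56.9 and 52.5 FPKM at day 15 and did not pass the test. Stmn2 and Nefh, both neuronal cytoskeleton genes, were high in undifferentiated cells and fell from 146 and 145 to 21.6 and 27.3 FPKM and from 42.6 and 40.4 to 3.22 and 2.37 FPKM. Of 18 glia and neural crest genes, 13 were tested, 7 only through day 15, and 8 were higher and 3 lower, with Sox10 at 1.17 and 1.64 FPKM at day 15. The lower calls went to 1 without the second day 15 library, and the median change of 0.88 was 0.27 with no filter.

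Genes of the primitive streak, a structure of the embryo at gastrulation, were mostly low at both days. Of 16 listed, 14 were tested, 9 only through day 15 and 1 only through day 0, and 12 were higher and 1 lower, with a median change of 1.48. The 9 had to be higher at day 15, and with a mean of 5 FPKM or more required 2 genes were higher. The summed FPKM of all 16, which does not depend on the filter, was 10.8 and 11.4 at day 0 and 68.3 and 66.5 at day 15. Eomes, a T-box factor of nascent mesoderm and endoderm, rose from 2.52 and 2.39 to 5.43 and 5.42 FPKM, by 0.89 ± 0.15 (adjusted p = 0.0012), the homeobox gene Mixl1 from 0.178 and 0.362 to 2.18 and 2.65 FPKM, Lhx1 from 0.0494 and 0.0430 to 9.88 and 7.88 FPKM and the Nodal antagonist Cer1 from 0 to 4.94 and 6.86 FPKM. Mesp1, which marks the first cardiac mesoderm, was at 1.48 and 1.19 FPKM from 0 and 0.110 FPKM, and Mesp2 fell by 0.77. Epithelial genes moved down: of 22 listed, 20 were tested, 2 only through day 15, and 4 were higher and 14 lower, with a median change of -0.87. Cdh1 (E-cadherin) fell from 201 and 208 to 63.7 and 60.3 FPKM while Cdh2 (N-cadherin) rose from 2.66 and 3.80 to 48.5 and 47.2 FPKM. Epcam and the simple keratins Krt8 and Krt18 fell by 1.85, 1.35 and 1.26, and the keratins of basal epidermis Krt5 and Krt15 rose by 2.49 ± 0.16 and 3.17 ± 0.21.

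Hox genes, which set position along the body axis, were nearly silent at day 0 and low at day 15. Of 39 listed, 30 were tested, 28 of them only through day 15, and 28 were higher and 0 lower by limma, as they were at an unadjusted p under 0.05 and by voom. Since nearly all entered through day 15, they had to be higher there, and their median change was 1.61, or 1.76 with the 6 genes at 0 at day 0 set to their lowest ratio. The summed FPKM of all 39, which does not depend on the filter, was 5.89 and 9.36 at day 0 and 93.7 and 96.0 at day 15. The highest were Hoxb2, at 0 at day 0 and 12.7 and 11.3 FPKM at day 15, Hoxb4, from 0.582 and 0.138 to 6.70 and 6.52 FPKM, and Hoxb3, from 0 to 5.96 and 6.51 FPKM. They lie side by side on chromosome 11. Posterior genes were measured too, such as Hoxa13 at 3.48 and 3.25 and Hoxd13 at 2.44 and 2.82 FPKM. In the annotation, exons of Hoxb2 overlap the antisense Hoxb3os and those of Hoxd4 overlap Hoxd3 on the same strand, so that fragments there cannot be fully told apart.

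**Figure D4:**
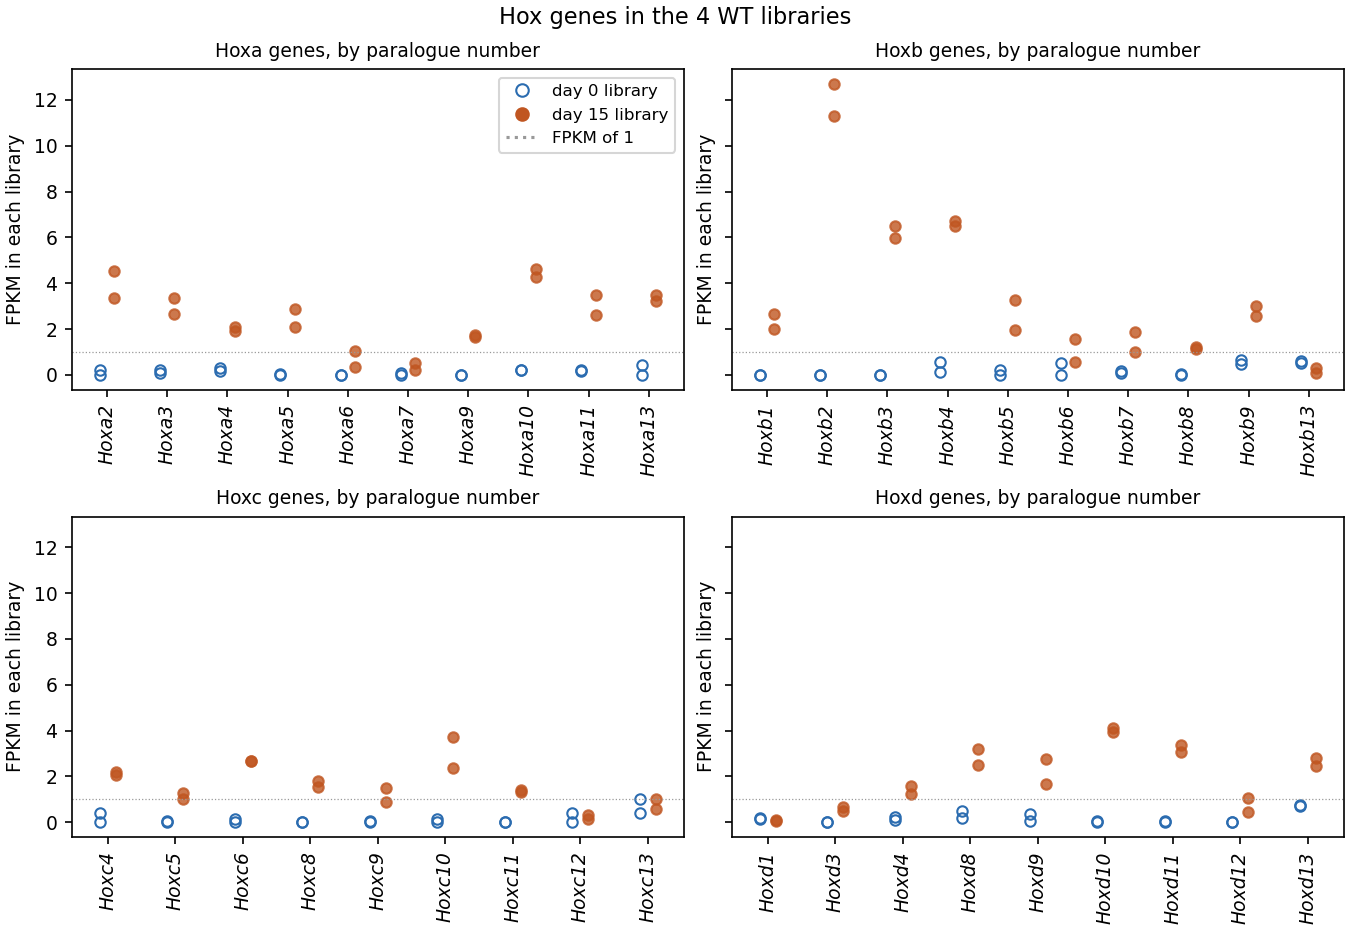
FPKM of Hox genes in each WT library, by cluster and paralogue number, with open blue circles for day 0, filled orange circles for day 15 and a dotted line at 1 FPKM. Hoxb2, Hoxb3 and Hoxb4 reached the highest values at day 15, and nearly all day 0 values lie under 1 FPKM.

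Imprinted genes, which are expressed from 1 parental copy and of which many govern fetal growth, held some of the largest changes. Of 33 listed, 31 were tested, 6 only through day 15 and 2 only through day 0, and 23 were higher, 21 of them by at least 2 times, and 5 lower, with a median change of 1.83. H19, a long noncoding RNA, was at 579.9 and 589 FPKM at day 0 and 3890.2 and 3941 FPKM at day 15, a change of 2.74 ± 0.07 (adjusted p = 7.7e-07), and was the most abundant gene of the day 15 libraries outside Rpph1 and Rmrp. Its neighbour Igf2, the fetal growth factor, rose from 10.5 and 12.2 to 164 and 162 FPKM. The zinc finger factor Plagl1 rose from 1.73 and 1.91 to 109.6 and 114 FPKM, Peg3 from 11.9 and 11.7 to 323 and 310.1 FPKM and Zim1, next to Peg3 on chromosome 7, from 0.116 and 0.135 to 36.7 and 38.8 FPKM. Dcn (decorin), imprinted in the mouse placenta and a matrix gene of the list above, rose from 0 and 0.170 to 42.4 and 44.1 FPKM.

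The end of chromosome 7 moved in both directions within 1 imprinted region. On mm9, H19 lies at chr7:149761434-149764048 (minus strand) and Igf2 at chr7:149836673-149852721 (minus strand), and both rose. Ascl2, a trophoblast factor at chr7:150152727-150155169 (minus strand), fell from 13.7 and 13.1 to 0.198 and 0.476 FPKM. Phlda2, a growth-limiting gene of the placenta at chr7:150687450-150688446 (minus strand), fell from 53.3 and 51.7 to 1.73 and 2.32 FPKM, by 4.15 (adjusted p = 1.7e-06), and Slc22a18 at chr7:150659626-150685239 (plus strand) fell by 1.46, a call lost without the first (adjusted p = 0.057) or the second day 15 library (adjusted p = 0.056). Between them the cell cycle inhibitor Cdkn1c, at chr7:150644255-150646955 (minus strand), did not pass the test, with 15.11 and 20.1 FPKM at day 0 and 15.09 and 15.5 FPKM at day 15, and Cd81 at chr7:150238644-150253839 (plus strand) rose by 0.27 ± 0.06. Exons of H19 also hold Mir675, and those of Igf2 overlap the antisense Igf2as. On chromosome 12 the genes Dlk1, Meg3, Rian and Mirg, which follow each other within chr12:110691033-110987665 on the plus strand, all rose: Dlk1 from 3.02 and 2.71 to 101 and 92.3 FPKM, Meg3 from 6.95 and 8.51 to 70.0 and 72.7 FPKM, Rian by 1.72 ± 0.09 and Mirg by 1.83 ± 0.12. Peg10 fell by 0.42 (adjusted p = 7.4e-04), a direction that turned at TPM scaling.

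DNA methylation genes changed in composition. Of 15 listed, 14 were tested and all 14 passed, 5 higher and 9 lower, with a median change of -0.63. At TPM scaling 5 were higher and 6 lower, with a median of -0.18. With FPKM as deposited, 36.9% of all genes tested were higher and 35.2% lower, so the higher calls of the list stood near the share of all genes. Dnmt3l, the partner without enzyme activity that stimulates the de novo methyltransferases, had the largest fall of all members, from 241 and 224 to 7.87 and 7.32 FPKM, a change of -4.76 ± 0.08 (adjusted p = 2.5e-07). Its exons overlap those of Aire on the other strand in the annotation. The enzymes themselves came level: Dnmt3b fell from 62.4 and 61.7 to 41.0 and 38.3 FPKM, a call lost at TPM scaling (adjusted p = 0.067), and Dnmt3a rose from 21.8 and 23.0 to 39.6 and 39.4 FPKM. The oxidases that remove methylation also exchanged, with Tet1 and Tet2 lower by 1.70 and 1.15 and Tet3 higher, from 4.70 and 4.58 to 22.4 and 21.6 FPKM. Dnmt1 and Uhrf1, which copy methylation after replication, fell by 0.72 and 1.14.

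Germ cell and early embryo genes fell as a group. Of 33 listed, 31 were tested, 11 only through day 0, and 27 were lower and 0 higher by limma. At an unadjusted p under 0.05 limma gave 28 lower and 1 higher, and voom gave 28 lower and 0 higher. The median change was -1.88. The 11 that entered only through day 0 had to be lower. With a mean of 5 FPKM or more required, 13 genes were lower and 0 higher. The summed FPKM of all 33, which does not depend on the filter, was 657 and 669 at day 0 and 136 and 143 at day 15. Mael, of the transposon-silencing pathway of germ cells, fell from 19.2 and 22.9 to 1.03 and 1.44 FPKM and Tex19.1 from 78.1 and 76.2 to 9.34 and 8.83 FPKM. Tcstv3, a gene of stem cells resembling the cleaving embryo, fell from 12.2 and 6.88 to 0.363 and 0.0972 FPKM and Zscan4d to 0.639 and 1.16 FPKM from 12.8 and 12.95 FPKM. Both belong to families of near-identical copies whose reads may be split. Of the 10 largest falls by the rule for named genes, Syce1, a protein of the meiotic chromosome axis, fell by 3.76 and Rhox13 and Rhox6, homeobox genes of the X chromosome, fell by 4.004 and 3.53. The histone gene Hist1h2aa, of a family with many near-identical copies, fell by 4.17. The dehydrogenase gene Hsd17b14 fell by 3.81, the citrate transporter Slc13a5 fell by 3.74 and uridine phosphorylase, Upp1, fell by 3.57. Trophoblast genes were mostly lower, 7 of 10 tested of 16 listed, with 3 higher.

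Genes of DNA replication and mitosis were nearly all lower. Of 41 listed and tested, 38 were lower, 27 of them by at least 2 times, and 1 higher, with a median change of -1.26. Mcm5, a subunit of the replicative helicase, went from 216 and 202 to 63.7 and 56.1 FPKM, a change of -1.79 ± 0.08 (adjusted p = 4.6e-06), and its partner Mcm2 from 159 and 165 to 61.2 and 55.9 FPKM. Cyclin E1, Ccne1, fell by 1.86 and Mcm10 by 1.91. Mki67, the proliferation marker Ki-67, was the only one higher, from 27.6 and 24.1 to 46.8 and 47.9 FPKM, a change of 0.85 ± 0.09 (adjusted p = 1.6e-04). Of 20 cell cycle inhibitors and D cyclins, 12 were higher and 4 lower. Cdkn1a (p21) rose from 37.0 and 35.5 to 163 and 158 FPKM, Cdkn2b from 4.97 and 5.78 to 28.7 and 28.1 FPKM, the growth arrest gene Gas1 from 1.04 and 1.02 to 27.6 and 27.4 FPKM and cyclin D2, Ccnd2, from 16.6 and 13.2 to 118 and 116 FPKM. Ccnd3 fell by 0.42, a direction that turned at TPM scaling.

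Glycolysis genes fell at most steps of the pathway. Of 24 listed and tested genes, 20 were lower, 18 of them by at least 2 times, and 3 higher, with a median change of -1.61, and the summed FPKM went from 8417 and 8208 to 2481 and 2375. The glucose transporter Slc2a3 fell from 839 and 851 to 155 and 159 FPKM and Slc2a1 from 605 and 589 to 151 and 135 FPKM. Hexokinase 2, Hk2, fell from 189 and 189.8 to 45.0 and 44.8 FPKM, by 2.05 (adjusted p = 1.5e-06), and lactate dehydrogenase A, Ldha, from 1110.4 and 1037 to 271 and 266 FPKM. Ldhb, the heart form, rose from 77.3 and 76.4 to 120.5 and 101 FPKM and Eno2, the neuronal enolase, from 1.70 and 1.44 to 9.18 and 9.43 FPKM. The platelet form of phosphofructokinase, Pfkp, fell by 2.11. Gapdh, which many studies use as a reference gene, fell by 1.65 (adjusted p = 3.0e-06), from 1144 and 1122 to 371 and 351 FPKM. Eno1, at a mean of only 12.2 FPKM at day 0, has near-identical copies in the genome that share its reads, so its level is uncertain.

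Fatty acid and mitochondrial genes did not rise as a group. Of 29 listed, 21 were tested, 1 only through day 15, and 5 were higher and 10 lower, with a median change of -0.19, which turned to 0.28 at TPM scaling with 11 higher and 4 lower. By the main fit 36.9% of all genes tested were higher and 35.2% lower. At TPM scaling the median change of all genes was 0.47. Acadm and Fabp3 fell by 1.42 and 1.36 and the lipase Lpl rose from 6.88 and 6.64 to 18.98 and 18.4 FPKM. Myoglobin, Mb, was at 2.63 and 1.43 FPKM at day 15 and the muscle creatine kinases Ckm and Ckmt2 were listed at 0 in both libraries of that day. Cpt1b, the muscle carnitine transferase, was at 0.0734 and 0.118 FPKM at day 15.

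Ribosomal protein genes fell by smaller amounts. All 50 listed were tested, 48 were lower and 0 higher by limma, with a median change of -0.79, and 8 fell by at least 2 times. At an unadjusted p under 0.05 limma gave 49 lower and 0 higher, and voom gave 48 lower and 0 higher. At TPM scaling the median was -0.32, with 38 lower and 3 higher. Rpl4 went from 1766 and 1779 to 1047 and 1026 FPKM and Rps2 from 1744 and 1563 to 839 and 727 FPKM. Rpl39l, a copy of Rpl39 used in the germ line, fell furthest, from 15.5 and 15.9 to 3.16 and 3.71 FPKM. Many of these genes have processed copies that can share their reads.

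Immediate early genes, which cells switch on within minutes of a stimulus, were high at day 15. Fos rose from 2.85 and 4.58 to 78.0 and 74.1 FPKM, by 4.05 ± 0.17 (adjusted p = 3.5e-06), Fosb from 0.504 and 0.345 to 27.7 and 25.9 FPKM and Egr1 from 22.6 and 26.2 to 211 and 193 FPKM. Jun rose from 12.8 and 11.03 to 72.6 and 67.9 FPKM. Hypoxia and heat shock members of the same list fell, where Bnip3 fell by 2.45, Ndrg1 fell by 1.78 and Hspb1 fell by 2.40. Of the 24 listed, 23 were tested, 2 only through day 15, and 9 were higher and 10 lower. Over all genes tested 36.9% were higher and 35.2% lower. The median of the list, -0.09, turned to 0.34 at TPM scaling and to 0.02 with libraries scaled to the fragments counted. Whether handling at harvest had a part in the immediate early genes was not tested.

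**Figure D5:**
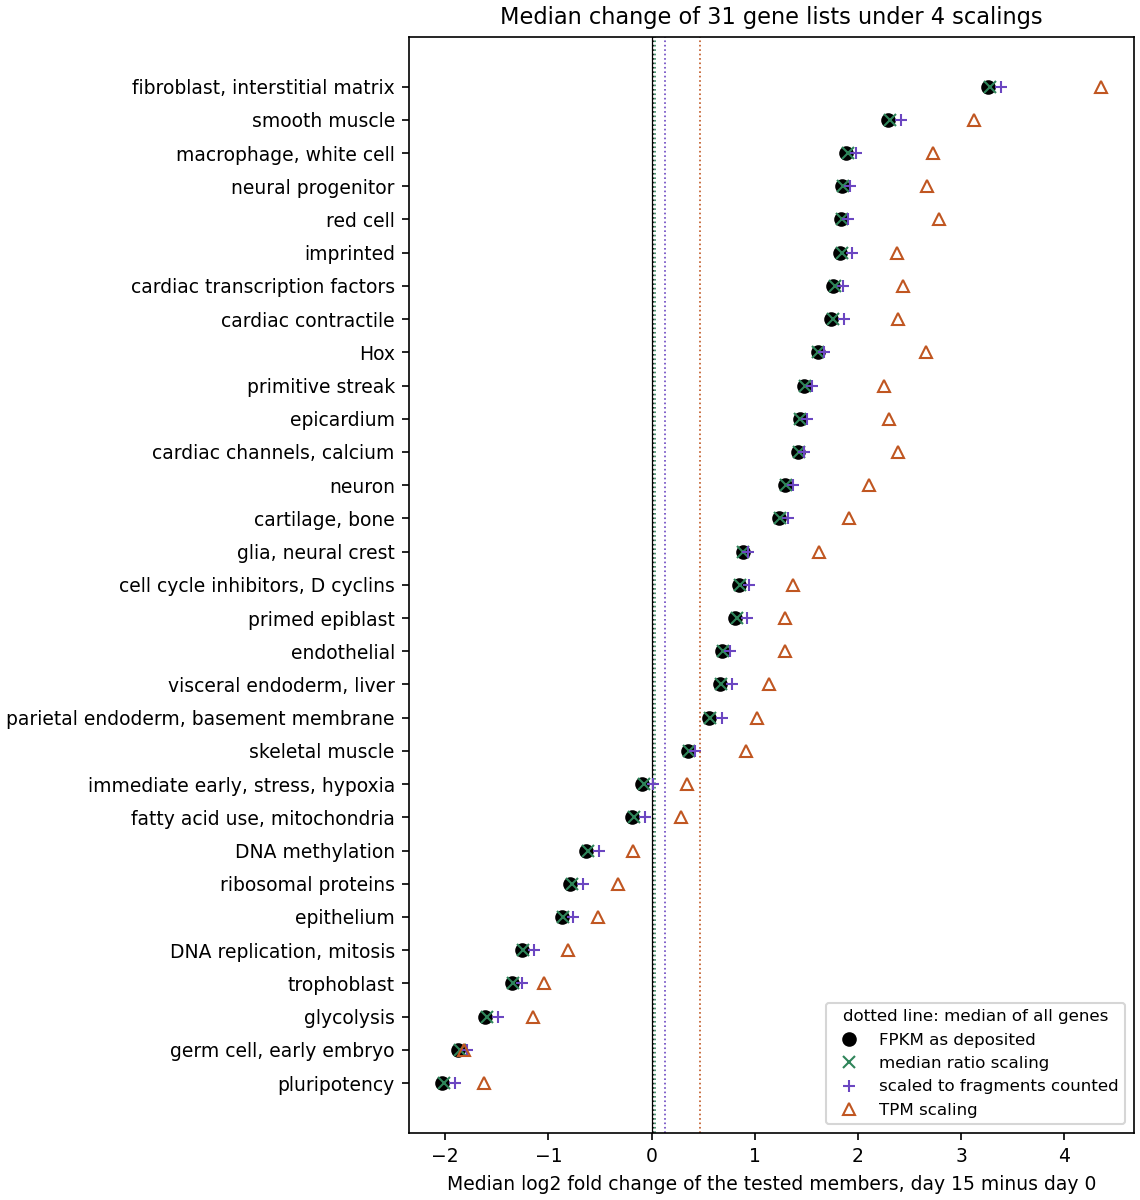
Median log2 change of the tested members of 31 gene lists (day 15 minus day 0) with FPKM as deposited (black circles), median ratio scaling (green crosses), libraries scaled to the fragments counted (purple plus signs) and TPM (orange triangles). Dotted lines mark the median of all genes under each, and only the stress and fatty acid lists cross 0 under a scaling.

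The ratio of some pairs of related genes differed between the days, where each gene was judged by its own test and the ratio was not tested. Of 28 pairs, 25 had both genes tested. Some ratios moved little, such as that of Cox7a2 to Cox7a1, from 9.21 to 8.58, of Tead2 to Tead1, from 1.68 to 2.04, and of Slc2a3 to Slc2a1, from 1.42 to 1.098. Cdh1 stood 63.3 times above Cdh2 at day 0 and 1.29 times above it at day 15. The lamins Lmnb1 and Lmna went from a ratio of 7.06 to one of 1.75, with Lmnb1 falling by 1.36 and Lmna rising by 0.62 ± 0.08. Mycn fell from 95.6 and 97.7 to 30.3 and 30.3 FPKM, and its ratio to Myc went from 4.41 to 1.81. The RNA-binding pair Lin28a and Lin28b went from 18.2 to 4.60, where Lin28a fell by 1.62 and Lin28b did not pass, with 6.21 and 7.05 FPKM at day 0 and 7.25 and 9.52 FPKM at day 15. Klf4, a reprogramming factor, fell to 25.6 and 23.6 FPKM from 94.8 and 101 FPKM while Klf6 rose to 37.9 and 42.1 FPKM from 19.2 and 18.6 FPKM. Smarcd3, a chromatin remodelling subunit of heart and muscle, rose from 2.21 and 1.85 to 10.1 and 9.55 FPKM and its counterpart Smarcd1 fell by 0.69.

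Among the most abundant members, Eef1a1, the translation elongation factor, was at 4385 and 4542 FPKM at day 0 and 3045 and 3035 FPKM at day 15, and Actb, cytoskeletal actin, at 2639 and 2761 FPKM at day 0 and 2230.4 and 2145 FPKM at day 15. Actb fell by 0.30 (adjusted p = 0.0087), missed the threshold without the first (adjusted p = 0.11) or second day 15 library (adjusted p = 0.15) and turned in direction at TPM scaling. Malat1, a nuclear noncoding RNA, rose from 168 and 186 to 1969.9 and 2222 FPKM, by 3.56 ± 0.09. Among the 200 genes with the highest mean, the smallest changes were those of Myl6, Tpt1, Hnrnpa2b1, Nedd4 and Hist1h1e. Tpt1 was at 674 and 651 FPKM at day 0 and 636 and 684 FPKM at day 15, and Hnrnpa2b1 at 249.7 and 271 FPKM at day 0 and 249.8 and 284 FPKM at day 15. The days overlapped in both. At TPM scaling Tpt1 changed by 0.46, close to the shift of all genes.

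Genes that were switched between the days were mostly gained. There were 329 genes that reached 1 FPKM in each day 15 library from under 0.1 FPKM in each day 0 library, and 18 were lost in the same sense. With the low limit at 0.3 FPKM the counts were 602 and 84. The gained genes include Hoxb2, Hba-x, C1qb and Fabp7 described above. The 2 sets also differed in level: the genes at least 2 times higher had a median level of 5.08 FPKM over the 4 libraries and the lower ones one of 21.1 FPKM.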

How the data were processed

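RNA-seq was made by the study with a strand-keeping mRNA kit and sequenced as pairs. The authors aligned reads to mm9 with Bowtie and tested differential expression with DESeq. The submitters' processing notes give the versions as Bowtie 0.12.2 and DESeq2 1.6.3, and the counting tool and its use of strand are not given in the sources used here. The authors deposited 1 table of FPKM values for all genes, from which the 4 WT columns were taken and the Hira-null columns were used in an alternative fit alone. Low values were whole multiples of 1 fragment, and the length of each gene was set from these steps. With those lengths 99.9992% of positive values came out whole to within 0.1, which is therefore no independent check. The fragments recovered in this way gave the totals per library. All columns were mapped by name.

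Genes with 1 FPKM or more in at least 2 WT libraries were fitted in R 4.3.3 with limma 3.58.1 on log2(FPKM + 1). The fit used a trend in the variance and Benjamini-Hochberg adjustment. It was first run on simulated data in which a small part of the genes changed, all well above 0. That run does not cover genes near 0 or a change in most genes. With 2 biological samples a day, the p-values set the difference between the days against the spread between those samples. For each gene limma drew that spread partly from the other genes, with 4.97 prior and 2 residual degrees of freedom. The fitted change of a gene at or near 0 depends on the added 1. The genes and lists were chosen with earlier results of these data known, so they are a description. Named were the 10 largest changes in each direction, the first 5 members and the 3 largest changes each way of each list, listed pairs, the 10 most abundant genes a day and the 5 smallest changes among the 200 most abundant. Small RNA genes and predicted genes were left out of these, and a few genes are not reported here. Alb, C1qc, Casq2, Cd81, Dlk1, Dppa3, Gapdh, Hoxa13, Hoxd13, Lefty2, Meg3, Mirg, Rian, Sln, Spp1, Tbx5, Zscan4d, Rpph1, Rmrp and the genes named as under the filter were chosen after their values were seen.

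Promoter windows were read from NCBIM37 with GENCODE annotation, since the RefSeq promoters at hand matched too few of the members. A voom fit to the recovered fragments, other scalings (TPM, median ratio, fragments counted), a pseudocount of 0.1, other filters, a replicate block and leaving out each library were the alternatives. Scaling to the fragments counted was chosen after seeing the data.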

Additional observations from a re-analysis of the deposited data

How the results depend on the processing

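With genes under a mean of 5 FPKM left out, 3037 genes were higher and 1285 at least 2 times higher, in a smaller set of genes. At TPM scaling 2796 genes were lower, 4293 at least 2 times higher and 891 at least 2 times lower. With a low limit of 0.3 FPKM, 602 genes were gained and 84 lost. Leaving out each library in turn gave 3389 to 4904 higher genes, 3388 to 4651 lower, 2363 to 2679 at least 2 times higher and 1681 to 1850 at least 2 times lower, where a day with 1 library is assumed to vary like the other.

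The replicate numbers were not shown to pair the samples. Across the 13356 genes, the difference of replicate 1 minus 2 at day 0 had a correlation of 0.0490 with that at day 15. With a replicate block 5028 genes were higher, 4840 lower, 2549 at least 2 times higher and 1778 at least 2 times lower, and no call of a named gene changed.

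Of 212 named genes tested, 11 lost their call in the same direction under at least 1 alternative. A turn in direction was counted only where the gene was called in the main fit or in the alternative. None turned in this sense except at TPM scaling, where Actb was at 0.17, Atp2a2 at 0.11, Ccnd3 at 0.048, Cldn6 at 0.18, Hand1 at 0.17, Hist1h1e at 0.37, Peg10 at 0.045, Timp1 at 0.063 and Tpt1 at 0.46 on the log2 scale. Hist1h1e and Tpt1 passed the test there, and Dnmt3b, Eef1a1 and Lrp2 no longer did. The median of the stress list also turned without the second library of either day, that of the skeletal muscle list without the second day 0 library, that of the glia and neural crest list without genes under a mean of 5 FPKM, and that of the fatty acid list without a filter. The cause of these changes was not tested.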
